A study of Mus musculus with 6 samples.

Results

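Histone-modifying enzymes place or remove methyl and acetyl groups on the tails of histones. The genes described here were taken by symbol: those that begin with Kdm, Kmt, Setd, Setdb, Hdac, Kat, Prmt, Ehmt, Ezh or Sirt followed by a digit, or with Suv, leaving out Kdm5d. On the array 177 probe sets of 45037 name 1 such gene, and they cover 74 of 18193 named genes. By symbol they comprise 17 demethylases (Kdm), 31 methyltransferases (Kmt, Setd, Setdb, Prmt, Ehmt, Ezh and Suv), 8 acetyltransferases (Kat) and 18 deacetylases (Hdac and Sirt). No single-gene probe set carried the name Suv39h1.

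Expression was measured in 6 cultures of primary fibroblasts grown from the dermis of B6 mouse pups aged 0 to 2 days, of mixed sex, at passage 4. The treated group, 3 cultures, received 5 µM 5-aza-2'-deoxycytidine during 96 hours, renewed every 24 hours, and then spent 24 hours without drug. The other 3 were untreated, so the comparison covers drug and recovery together, at 1 dose and 1 time. Each replicate came from its own explant, and the sources used here do not give the number of pups per explant. Nor do they say whether control and treated cultures of the same number shared an explant. The drug is a cytidine analogue that inhibits DNA methyltransferases after its incorporation into DNA.

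Methylation of histone lysines has different associations at different residues. The COMPASS-type methyltransferases (Kmt2a, Kmt2b, Kmt2c, Kmt2d and the Setd1 enzymes) write the mark of active promoters and enhancers, which Kdm1 and Kdm5 enzymes remove. Suv39h, Ehmt and Setdb enzymes write the mark of heterochromatin, and Ezh enzymes the Polycomb mark that Kdm6 enzymes remove. Acetylation by Kat enzymes accompanies transcription, and Hdac and Sirt enzymes reverse it. DNA methylation and the heterochromatin mark often lie together on silent genes. The names mark families and not substrates: Sirt3, Sirt4 and Sirt5 are mitochondrial, and Prmt3 is known for a ribosomal protein substrate.

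The sequence upstream of 4 members is shown because the drug acts at CpG sites and in each direction these 2 changed most among the called members with 1 start listed. They are the 250 bases before the RefSeq start in GRCm38.p6, written 5′ to 3′ on the strand of the gene, with each CpG in capitals. Suv39h2 (chr2:3474987-3475236, minus strand) holds 27 CpGs and Sirt5 (chr13:43365285-43365534, plus strand) 13. Kmt2c (chr5:25498784-25499033, minus strand) holds 48 and Hdac8 (chrX:102505159-102505408, minus strand) 6. The median over the first listed start of 27025 genes was 6. Methylation of these sites is not analysed here.
Suv39h2, higher in treated cultures: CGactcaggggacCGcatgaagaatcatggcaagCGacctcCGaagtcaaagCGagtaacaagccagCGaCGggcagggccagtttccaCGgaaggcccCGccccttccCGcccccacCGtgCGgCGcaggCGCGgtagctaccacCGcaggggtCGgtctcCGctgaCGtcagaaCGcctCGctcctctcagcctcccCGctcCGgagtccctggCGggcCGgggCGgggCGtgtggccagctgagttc
Sirt5, higher: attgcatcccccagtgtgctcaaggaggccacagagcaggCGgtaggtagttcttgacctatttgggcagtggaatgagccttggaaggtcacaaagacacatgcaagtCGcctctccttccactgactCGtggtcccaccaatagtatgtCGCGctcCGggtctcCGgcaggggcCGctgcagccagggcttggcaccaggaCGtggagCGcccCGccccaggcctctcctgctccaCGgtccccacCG
Kmt2c, lower: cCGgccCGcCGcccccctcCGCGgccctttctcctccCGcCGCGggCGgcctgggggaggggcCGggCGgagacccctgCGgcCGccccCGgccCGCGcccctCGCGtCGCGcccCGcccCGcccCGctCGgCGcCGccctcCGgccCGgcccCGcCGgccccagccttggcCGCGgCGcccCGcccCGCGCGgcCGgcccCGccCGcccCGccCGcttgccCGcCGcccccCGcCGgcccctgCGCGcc
Hdac8, lower: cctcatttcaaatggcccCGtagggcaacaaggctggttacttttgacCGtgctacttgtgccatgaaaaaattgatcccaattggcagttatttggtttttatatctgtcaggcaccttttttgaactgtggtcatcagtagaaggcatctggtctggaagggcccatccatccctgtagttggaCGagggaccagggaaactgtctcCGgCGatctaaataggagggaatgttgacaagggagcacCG

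Fewer of these enzymes rose than fell. Signals are MAS5 intensities scaled to one trimmed mean, and changes are differences of log2(signal + 9.66), treated minus control, called at a limma adjusted p under 0.05. Each gene is represented by its brightest tested probe set. A probe set was tested where it exceeded the array median on at least 3 of 6 arrays, which left 72 of the 74 genes. Hdac9 and Prmt8 had no tested probe set. Of the 72, 66 exceeded the median on all 6 arrays, and 1, Suv39h2, passed through the treated arrays alone, so that it had to differ. The representative probe sets of Kat2b, Hdac2, Sirt5, Kdm1a, Kdm2b, Prmt5 and Prmt2, among those called, carry suffixes for probes that match more than 1 transcript. Among the 72 genes 25 fell and 7 rose, together 44.4%, where 41.1% of all 12194 tested genes were called. Fallers made up 34.7% of the members and 21.6% of all genes, and risers 9.72% and 19.5%. Without Suv39h2, 6 of 71 rose. Their median log2 change was -0.21, against -0.00 over all genes. Called changes of at least 2-fold were found for 4 fallers and 1 riser (6.94% of members, and 11.4% of all genes). The groups did not overlap in 42 of the 72 (58.3%, and 52.5% of all genes). Without scaling the arrays 18 fell and 2 rose, so that 10% of the called members were higher against 21.9% with it. Over all genes that share went from 47.5% to 39.8%, with 8.92% higher and 13.5% lower. Without treated replicate 1 or 2, 4 members rose. Leaving out any treated replicate kept Suv39h2 from passing the filter. Over probe sets, 119 of 177 were tested, with 42 lower and 12 higher. Of all 23388 tested probe sets 38.7% were called, 20.3% lower and 18.4% higher.

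**Figure D1:**
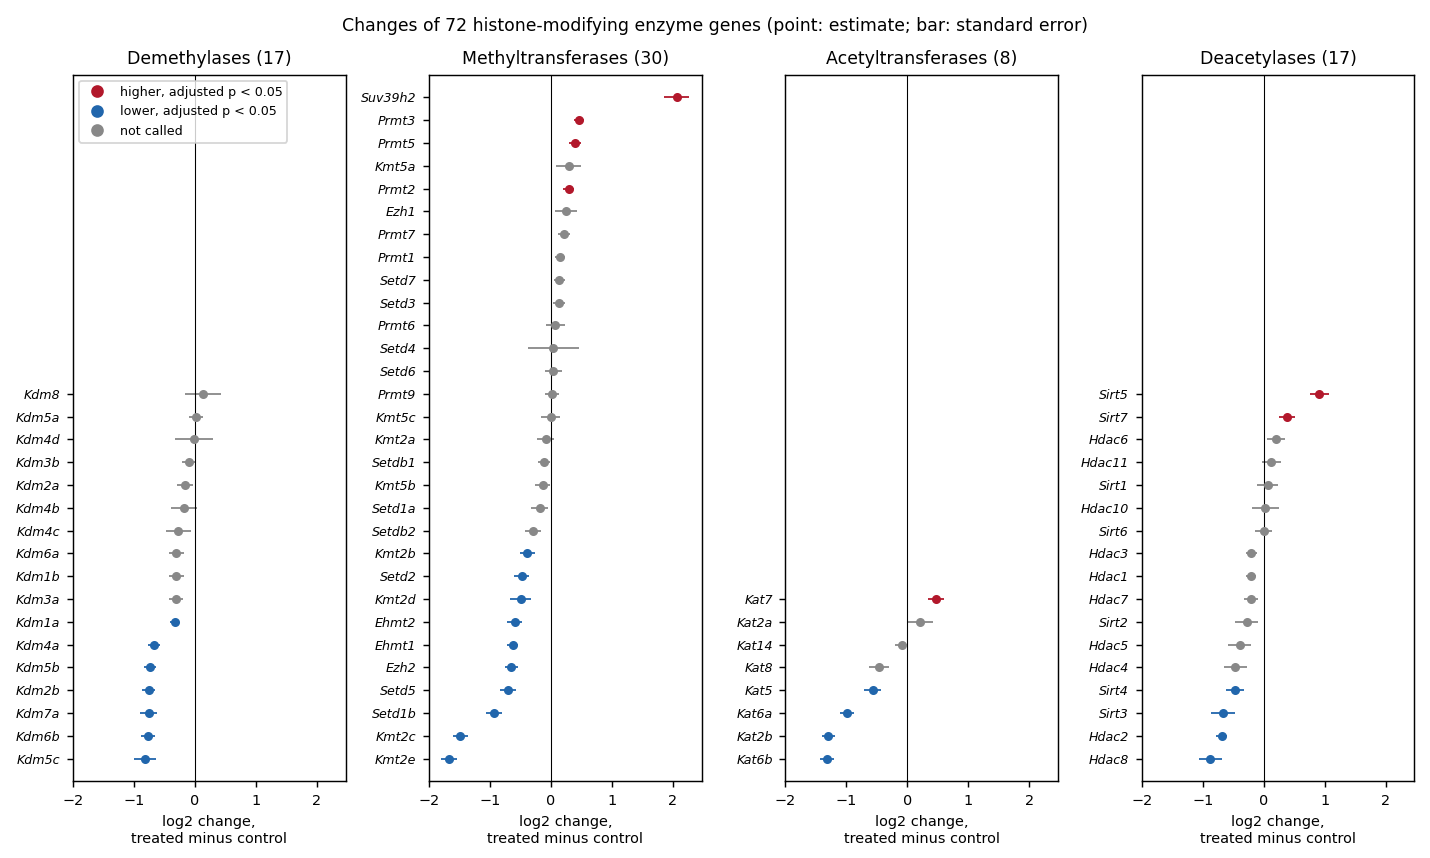
Log2 change (treated minus control) of the 72 tested genes, by enzyme group, with the standard error as a bar and colour for the call. Fallers outnumber risers in every group, and Suv39h2 stands alone at the right with a change of 2.06.

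**Figure D2:**
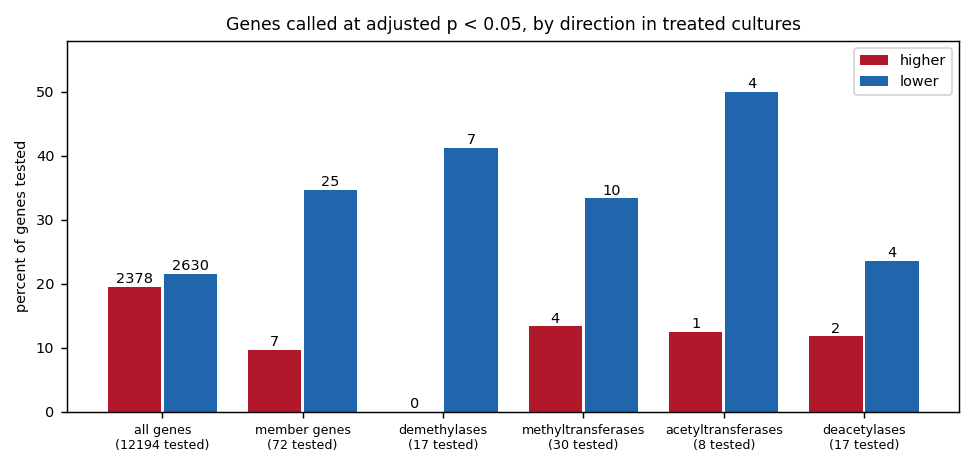
Percent of tested genes called higher (red) and lower (blue) among all genes, all members and each enzyme group, with the number of genes above each bar. The bars of all genes are near each other at 19.5% and 21.6%, while those of the members stand at 9.72% and 34.7%.

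Among the demethylases 7 of 17 fell (41.2%) and 0 rose, with a median of -0.30, beside 21.6% lower and 19.5% higher over all genes. At an unadjusted p under 0.05, 10 of the 17 differed, or 58.8%, beside 49.2% of all tested genes. Removers of the promoter mark were among the fallers. Kdm5c had signals of 264, 268 and 405 on control arrays 1 to 3 and of 154, 154 and 205 on treated arrays 1 to 3. Control array 3 was the highest, and each control array lay above every treated one. The log2 change was -0.82 ± 0.19 (SE; limma adjusted p = 0.00661). Its gene is on the X chromosome, and the sources used here do not give the share of female pups per culture. Kdm5b read 658, 675 and 777 in controls and 418, 421 and 413 in treated cultures, a change of -0.74 ± 0.094 (adjusted p = 0.000233). The flavin-dependent Kdm1a fell by less at its brightest probe set, from 1160 ± 36.4 (SD, n = 3) to 920.1 ± 33.1 (log2 change -0.33). That call was lost without scaling, and the dimmer tested probe set of Kdm1a changed by -1.04. Kdm5a, the close relative of Kdm5b, changed by 0.02 (95% interval -0.23 to 0.27).

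Of the Polycomb-mark demethylases, Kdm6b fell and Kdm6a was not called at its brightest probe set. Kdm6b had signals of 392, 391 and 416 in controls against 208, 265 and 224 in treated cultures (log2 change -0.77 ± 0.12, SE; limma adjusted p = 0.000649). Kdm6a changed by -0.30 (95% interval -0.57 to -0.03), and its 2 groups did not overlap. The mark of transcribed gene bodies is a substrate of Kdm2 and Kdm4 enzymes. Kdm2b, which also brings a Polycomb complex to CpG islands, went from 719 ± 96.4 (SD, n = 3) to 419 ± 13.1. Kdm4a went from 500.0 ± 26.9 to 309 ± 20.6, and Kdm7a, which acts on the heterochromatin and Polycomb marks, from 214 ± 8.59 to 123 ± 16.6. The log2 changes of these 3 were -0.76, -0.68 and -0.76. The remaining 10 demethylases had changes between -0.31 (Kdm3a) and 0.14 (Kdm8), with none called.

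Among the methyltransferases 10 of 30 fell (33.3%) and 4 rose (13.3%), beside 21.6% and 19.5% of all genes. Their median was -0.05, and the largest changes of all members lay here. Suv39h2, a writer of the heterochromatin mark that is known from testis, read 32.9, 39.4 and 41.8 on the control arrays. On the treated arrays it read 221.8, 206.5 and 147.2. All control values lay below the median of their array, which was between 51.8 and 60.1, and all treated values above it. No detection calls were used, so the control level is not separated from background. The log2 change was 2.06 ± 0.21 (SE), and with no filter, where passing it plays no part, the limma adjusted p was 0.000202. A second tested probe set went from 29.7 ± 8.88 (SD, n = 3) to 171 ± 18.7, a change of 2.22. It too passed through the treated arrays alone, and with no filter its limma adjusted p was 0.000257. The third, dim and untested, went from 20.7 ± 3.26 to 14.1 ± 5.00. Its change of -0.37 was not called with no filter (limma adjusted p = 0.457).

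The other writers of the heterochromatin mark that were tested did not rise, and Suv39h1 had no single-gene probe set. Ehmt1 and Ehmt2, which work as a dimer on euchromatic genes, both fell. Ehmt1 had signals of 784, 876 and 766 in controls and 511, 508 and 533 in treated cultures (log2 change -0.63 ± 0.088, SE; limma adjusted p = 0.000402). Ehmt2 had 700.0, 705 and 624 in controls against 385, 440 and 511 (-0.60 ± 0.12; adjusted p = 0.00281). Setdb1 changed by -0.12 (95% interval -0.34 to 0.10) and Setdb2 by -0.30 (-0.60 to -0.01), without being called.

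Kmt2e and Kmt2c had the 2 lowest changes of all members. Kmt2e, which shares the family name but is not known to methylate histones itself, read 693, 790 and 962 in controls and 238, 263 and 239 in treated cultures. Its log2 change of -1.67 ± 0.13 (SE; limma adjusted p = 8.85e-06) was the lowest, and each of its 4 tested probe sets fell, the least by 1.00 on the log2 scale. Without 1 control array another, nearly as bright probe set represents the gene, with a change as small as -0.87 (adjusted p = 0.00395), which is above the values of Kmt2c, Kat6b and Kat2b. With the same probe set kept, the 6 omissions gave -1.78 to -1.55. Kmt2c, a COMPASS-type enzyme that acts at enhancers, read 288, 282 and 308 in controls and 97.5, 103.7 and 93.1 in treated cultures (-1.49 ± 0.12; adjusted p = 1.43e-05). Setd1b went from 332 ± 37.4 (SD, n = 3) to 169 ± 21.5. Kmt2b (-0.39) and Kmt2d (-0.50) were called with adjusted p-values of 0.0342 and 0.0434. Kmt2d lost its call on leaving out any 1 array (changes from -0.55 to -0.40, adjusted p up to 0.13). Kmt2b lost it without control replicates 1 and 2 and treated replicates 1 and 3, each in turn (changes from -0.48 to -0.32 over all 6 omissions, adjusted p up to 0.109). Kmt2a changed by -0.09 (95% interval -0.39 to 0.21) at its brightest probe set, and Setd1a by -0.19 (-0.49 to 0.11). The second tested probe set of Kmt2a was called lower (-0.46), though not with no filter (limma adjusted p = 0.0622).

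Ezh2, the catalytic subunit of the Polycomb repressive complex that is abundant in dividing cells, fell in all treated cultures. Its signals were 372, 362 and 333 in controls and 226, 211 and 233 in treated cultures, a log2 change of -0.65 ± 0.10 (SE; limma adjusted p = 0.000947). Among 13 tested proliferation genes 10 fell (76.9%) and 0 rose, with a median of -0.70, beside 21.6% lower and 19.5% higher over all genes. Mki67, a marker of dividing cells, went from 437 to 129, while Pcna, Mcm2 and Aurkb were not called. What share of the Ezh2 change goes with these genes was not tested. Ezh1 read 126, 88.0 and 133 in controls and 139, 129 and 143 in treated cultures, so its groups overlap, and its change of 0.24 was not called. Kmt5a, a cell-cycle-regulated methyltransferase of histone H4, changed by 0.29 (95% interval -0.17 to 0.75). Without control replicate 1, where its signal was 264.8 against 170.5 and 145.9 in the other controls, the change was 0.53 (adjusted p = 0.0325). Setd2, the writer of the gene-body mark, fell from 492 ± 48.9 (SD, n = 3) to 350 ± 51.1 (log2 change -0.48). Without treated replicate 1 its change was -0.42 (adjusted p = 0.0547). Setd5 fell from 331 ± 22.6 to 200 ± 27.4 at its brightest probe set, and its other 2 tested probe sets were not called.

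Of the 7 tested arginine methyltransferases with a Prmt symbol 3 rose (42.9%) and 0 fell, beside 19.5% higher and 21.6% lower over all genes. An unadjusted p under 0.05 was found for 3 (42.9%, and 49.2% of all genes), and the median was 0.21. Carm1, an arginine methyltransferase whose symbol the rule does not take, fell (log2 change -0.79, limma adjusted p = 0.000796). Prmt3 had signals of 549.6, 519.5 and 519.5 in controls and 740.1, 730.1 and 723 in treated cultures (log2 change 0.46 ± 0.080, SE; limma adjusted p = 0.0016). Prmt5, which makes symmetric dimethylarginine, read 529, 557 and 459 against 667, 688 and 670.1 (0.39 ± 0.096; adjusted p = 0.0102). Prmt2 rose from 553 ± 30.9 (SD, n = 3) to 679 ± 41.5. Its call was lost without control replicates 2 and 3 and treated replicates 1 and 2, each in turn (changes from 0.13 to 0.33 over all 6 omissions, adjusted p up to 0.339, or 0.25 to 0.33 and up to 0.11 with the same probe set kept). Prmt1, the main writer of asymmetric dimethylarginine, went from 2137 ± 17.3 to 2367 ± 201. That change of 0.14 (95% interval -0.04 to 0.32) was not called. Without scaling none of the Prmt rises was called. The difference between arginine and lysine enzymes itself was not tested.

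Among the acetyltransferases 4 of 8 fell (50%) and 1 rose (12.5%), with a median of -0.52, beside 21.6% lower and 19.5% higher over all genes. Over their 14 tested probe sets 4 fell (28.6%) and 1 rose (7.14%), with a median of -0.11. Of all tested probe sets 20.3% fell and 18.4% rose. Kat6b and Kat6a, paralogous catalytic subunits of related complexes, were both lower. Kat6b read 433, 408 and 496 in controls and 173, 189 and 158 in treated cultures (log2 change -1.32 ± 0.12, SE; limma adjusted p = 2.85e-05). Kat6a read 417, 458 and 399 in controls and 182, 214 and 233 in treated cultures, a change of -0.99. Kat2b, a coactivator subunit, had 663, 714 and 770.4 against 262, 295 and 300.2 (-1.29 ± 0.10; adjusted p = 1.1e-05). Kat5, which acetylates histone H4 and repair factors, fell from 274 ± 22.9 (SD, n = 3) to 183 ± 28.3 at its brightest probe set. Its second probe set changed by -0.01 and was not called.

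Kat7, an acetyltransferase linked to replication origins, was the riser of that group. It read 434, 509.9 and 352 in controls and 595, 599 and 592 in treated cultures (log2 change 0.47 ± 0.13, SE; limma adjusted p = 0.0164). Its 2 dimmer tested probe sets changed by 0.32 and -0.30 without being called, and the mean over the 3 was not called. Kat8, which acetylates histone H4, changed by -0.47 (adjusted p = 0.0557). It was called lower without control replicate 1 or treated replicate 2 (adjusted p down to 0.0323).

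Among the deacetylases 4 of 17 fell (23.5%) and 2 rose (11.8%), with a median of -0.21. The share of fallers was near the 21.6% of all genes, of which 19.5% rose. Hdac2 had signals of 1566, 1552 and 1755 in controls and 1048, 1036 and 928 in treated cultures (log2 change -0.69 ± 0.087, SE; limma adjusted p = 0.000224). Both of its tested probe sets fell. Hdac1, which sits with Hdac2 in the same complexes, read 1855, 1572 and 1608 in controls and 1475, 1384 and 1484 in treated cultures. Those groups did not overlap, but its change of -0.21 (95% interval -0.40 to -0.02) was not called (adjusted p = 0.0853). Hdac8, an X-linked deacetylase of cohesin, fell from 101 ± 4.39 (SD, n = 3) to 50.7 ± 4.46, with 1 of its treated values above the array median. Hdac3, the catalytic subunit of the nuclear receptor corepressor complexes, changed by -0.20 and was not called. The remaining 6 tested Hdac genes were not called either, with changes from -0.46 (Hdac4) to 0.21 (Hdac6). Hdac5 was called lower without treated replicate 3 alone (-0.64, adjusted p = 0.00687).

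Sirtuins were split. Sirt5, a mitochondrial enzyme that removes succinyl and malonyl groups, read 137, 165 and 197 in controls and 327, 355 and 277 in treated cultures. Its log2 change was 0.91 ± 0.15 (SE; limma adjusted p = 0.00132), and a second tested probe set rose by 0.84. The nucleolar Sirt7 rose from 247 ± 36.6 (SD, n = 3) to 324 ± 18.7. It lost its call without control replicate 3 or any treated replicate (changes from 0.26 to 0.45 over all 6 omissions, adjusted p up to 0.116). Sirt3 and Sirt4 fell from 92.5 ± 6.79 to 54.9 ± 5.76 and from 179 ± 13.4 to 127 ± 15.1. Sirt3 lost its call without control replicate 1 or 3, and Sirt4 without control replicate 1 or 2. Both lost it without treated replicate 1 or 3. Over the 6 omissions Sirt3 ranged from -0.73 to -0.62 (adjusted p up to 0.0781) and Sirt4 from -0.54 to -0.38 (adjusted p up to 0.0842). Without scaling Sirt7, Sirt3 and Sirt4 were not called. Sirt7 and Sirt3 also lost their calls with no filter, and Sirt7 with limma's trend left out. Sirt1, the nuclear sirtuin, changed by 0.07 (95% interval -0.31 to 0.45). Like Sirt1, Sirt2 (-0.28) and Sirt6 (-0.002) were not called.

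**Figure D3:**
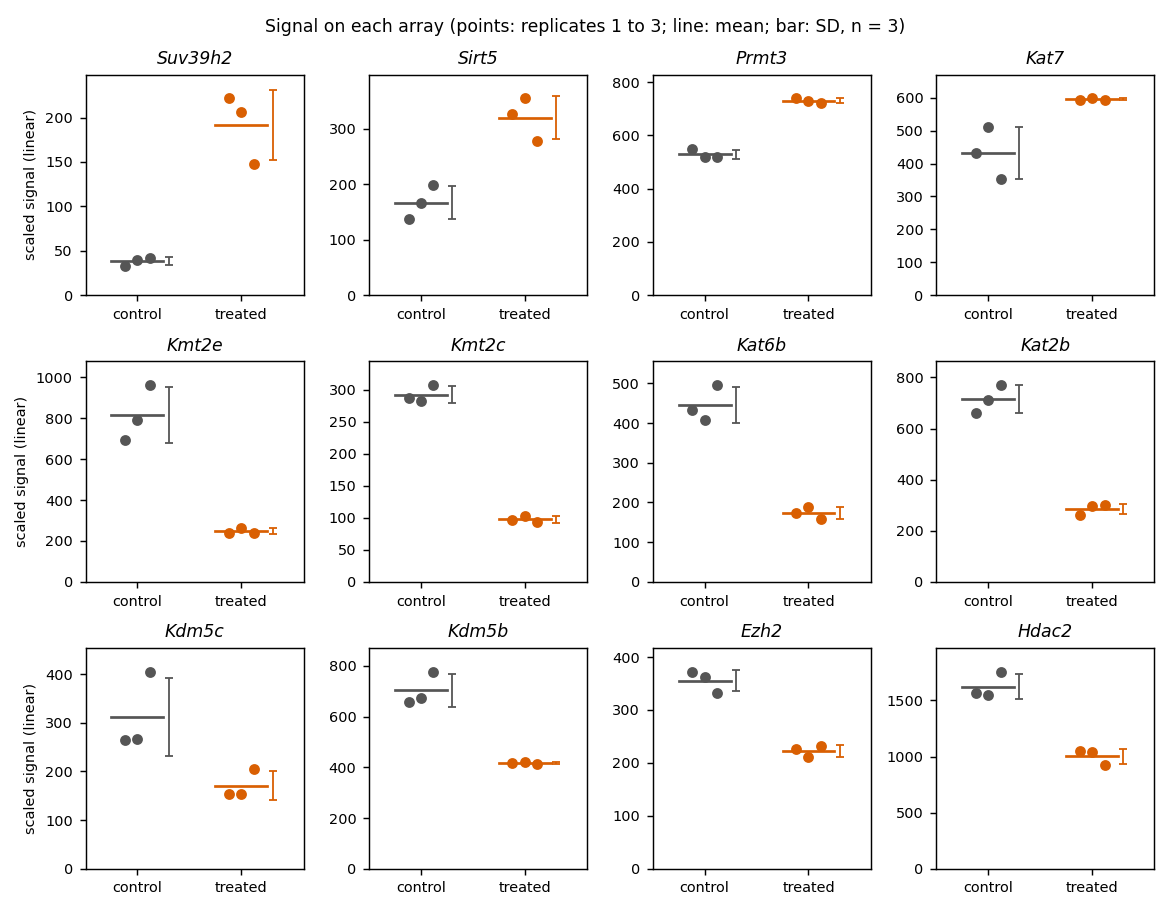
Scaled linear signal of 12 members on each array, with points for replicates 1 to 3, a line for the mean and a bar for the SD. In each panel all treated points lie on one side of all control points, as for Kmt2c at 93.1 to 103.7 against 282 to 308. All 12 are called members. Over the 72 tested members 58.3% had groups without overlap, and over all tested genes 52.5%.

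Close copies were compared within arrays, as the difference of their log2 signals, in 11 of 12 planned pairs. The groups did not overlap in 6 of the 11, where 52.5% of all tested genes, taken singly, did not overlap. Each of the 6 had an exact permutation p of 0.1 (two-sided), the smallest that 3 against 3 allows. After Benjamini-Hochberg adjustment over the 11 it was 0.183. Kat2a and Kat2b moved furthest apart. Kat2a, a coactivator subunit like its copy, read 173, 347 and 267 in controls and 298, 281 and 297 in treated cultures, and was not called. The difference of their changes was 1.5, with within-group SDs of 0.43 and 0.13. Next were Ezh1 and Ezh2 (0.89, SDs 0.34 and 0.003), Kdm2a and Kdm2b (0.59), Hdac1 and Hdac2 (0.48), Kdm6a and Kdm6b (0.46) and Setdb1 and Setdb2 (0.18). For Ehmt1 and Ehmt2 the difference was -0.03 and the groups overlapped (exact permutation p = 0.9). At their other tested probe sets Kdm2a fell (-0.49, limma adjusted p = 0.0482) and Kdm2b changed by -0.27 without being called, the opposite order. No p under 0.1 was possible here, so unequal change was not established for any pair. Which copy was constant was not tested.

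**Figure D4:**
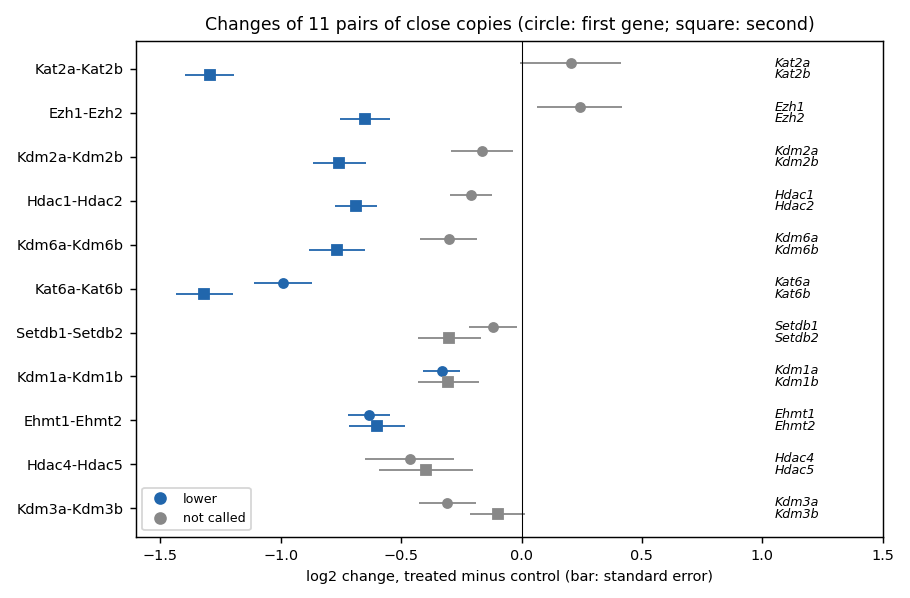
Log2 change (treated minus control, bar for the standard error) of the first (circle) and second (square) gene of 11 pairs, with colour for the call. The second copy lies further left in the upper pairs, by 1.5 for Kat2a and Kat2b, while Ehmt1 and Ehmt2 lie together.

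Probe sets of the same gene did not always give the same call. Among the 32 members with several tested probe sets, 8 had all called in the same direction, 9 had none called and 15 had both called and uncalled ones. In Kmt5b, a methyltransferase of histone H4, 1 probe set fell (-0.46, adjusted p = 0.0174) and another rose (0.44, adjusted p = 0.0484). Its brightest was not called. Among the tested member probe sets 6, of 5 genes, exceeded the median on all arrays of 1 group and none of the other, so they had to differ. One is a dim probe set of Kdm3b, with a change of 0.73 that was not called with no filter (adjusted p = 0.0958). For Kdm1a the dimmer probe set fell by 1.04 and the brighter one by 0.33, and for Kdm6a the dimmer one fell (-0.65). The positions of the probe sets within the transcripts were not used here, so isoforms were not separated.

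**Figure D5:**
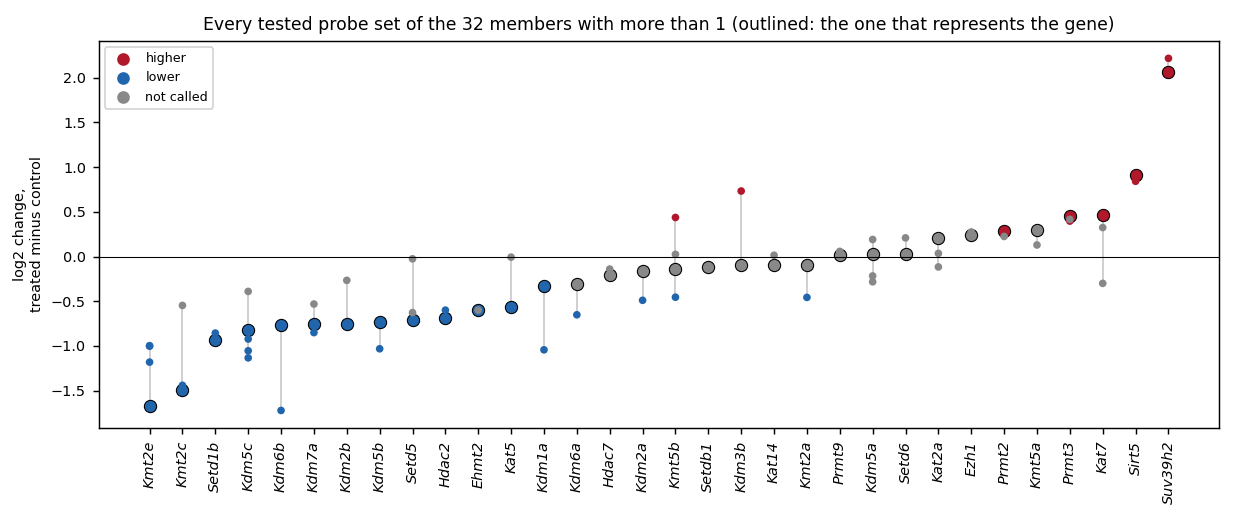
Log2 change of every tested probe set of the 32 members with more than 1, ordered by the outlined representative, with colour for the call. Both probe sets of Suv39h2 lie near 2, the 4 of Kmt2e all lie well below 0, the lowest at -1.67, and those of Kmt5b lie both above and below 0.

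Partner subunits of these enzymes were counted in the same way, beside 21.6% lower and 19.5% higher over all tested genes. Of 22 tested Polycomb genes 7 fell (31.8%) and 3 rose (13.6%), with a median of -0.19. Cbx6 and Phc1, subunits of the first Polycomb complex, fell (log2 changes -1.70 and -1.65). Eed, the partner of Ezh2, rose (0.44), and Suz12, a further core subunit, changed by 0.05 without being called. Of 11 shared COMPASS subunits 3 fell and 0 rose, and 3 had an unadjusted p under 0.05 (27.3%, and 49.2% of all genes), with the core scaffold Wdr5 at 0.04 and not called. Of 22 subunits of deacetylase complexes 9 fell (40.9%) and 3 rose (13.6%). Of 25 subunits of acetyltransferase complexes 9 fell (36%) and 1 rose (4%). Heterochromatin proteins had 3 of 7 lower (42.9%) and 1 higher (14.3%). Among 25 further enzymes whose symbols the rule does not take, 8 fell (32%) and 6 rose (24%). The acetyltransferases Ep300 and Crebbp were among the fallers (-0.91 and -0.56), as was the arginine methyltransferase Carm1 (-0.79). Smyd4 (1.21) and Riox2 (0.87) had the largest rises.

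Promoters were found in the RefSeq table for 60 of the 72 members, taking the first start listed for each. Per 300 bases (250 before to 50 after the start) the median CpG count was 17 in 7 risers, 25 in 20 fallers and 21 in 33 members not called. Over all tested genes with a promoter it was 21, 21 and 20. The GC box GGGCGG, searched on both strands, was found in 5 of 7 risers and 9 of 20 fallers, and in 62.8% of all tested genes. CCAAT was found in 5 of 7 and 7 of 20, against 38.4%. TTTGAA, the core of the cell cycle homology element, was found in 2 of 7 and 2 of 20, against 11.8%. These are matches of letters and not shown to be binding sites. Gene length from start to end in that annotation had a median of 65.0 kb in the 25 fallers, 34.1 kb in the 40 members not called and 29.8 kb in the 7 risers. Over all tested genes the medians were 29.8, 22.0 and 21.6 kb. Of the 6 tested members on chromosome 5, 5 fell: Kmt2e, Kmt2c, Setd1b, Kdm2b and Sirt4, the last with a call that was often lost as described. Of all 764 tested genes there 22.0% fell. The chromosome was picked after its values were seen. Kdm2b and Setd1b are separated there by 4 other protein-coding genes.

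All 8 fibroblast markers exceeded the median on every array, and their summed signal was 50517 to 58271 in controls and 23404 to 28299 in treated cultures, with 7 lower. Of the keratinocyte markers Krt1, Krt14, Trp63 and Cdh1 stayed below the array median throughout. Dsp rose from a mean of 25.9 in controls to 277 in treated cultures, while Krt5 and Krt10 were not called. The sum of all 7 was 215 to 321 in controls and 416 to 622 in treated cultures. The 5 skeletal muscle markers summed to 774 to 908 and 4677 to 5379, mostly through Acta1. Des rose as well, from 73.8 to 156, while Myog, which commits cells to muscle, stayed below the median. The leukocyte markers summed to 511 to 563 in controls and 638 to 785 in treated cultures. Of these, Cd68 rose, Csf1r and Lyz2 exceeded the median on every array, and Ptprc, Itgam and Cd3e stayed below it. Neuron and glia markers summed to 344 to 371 and 438 to 508. The sums overlapped between groups for endothelial (297 to 345 and 276 to 378), melanocyte (376 to 521 and 337 to 469) and fat cell markers (140.1 to 354 and 300.2 to 313). Pecam1 and Adipoq stayed below the median throughout, while Cdh5 rose and Tek fell. The part of these shifts in the enzyme results was not tested. The ratio of 3' to 5' control probe sets of Actb, which depends on how intact and evenly labelled the RNA was, ranged over 1.26 to 1.28 in controls and 1.14 to 1.18 in treated cultures, and that of Gapdh 0.721 to 0.751 and 0.747 to 0.792. Their part was not tested either. In such bulk samples fewer cells of a type and less RNA per cell cannot be told apart.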

How the data were processed

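RNA from 6 cultures was hybridised to 1 Affymetrix array each. The deposited values are linear MAS5 signal intensities per probe set, with MAS5 named in the submitters' processing notes, no version stated. MAS5 subtracts background by means of mismatch probes. The sources used here give no detection calls or target intensity.

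Each array was multiplied to a 2% trimmed mean of 193.2 over all but the 64 control probe sets, and log2(signal + 9.66) was tested by limma's lmFit and eBayes, trend included (limma 3.58.1, R 4.3.3), with the group as the only term. Benjamini-Hochberg adjustment ran over all 23388 tested probe sets. Fold changes of dim probe sets are understated on this scale. All 177 member probe sets were matched to RefSeq genes of GRCm38.p6 by Entrez identifier. Standard errors and 95% intervals are moderated ones from that fit, and precision is limited by there being 3 arrays a group. No pair of arrays held identical values.

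The members, lists and pairs were chosen with earlier results of these data known. The naming rule took up to 5 called genes per enzyme group and direction with the largest change, and a listed set of genes whatever their values. Other members, single probe sets, lists' examples, promoters and gene lengths were chosen after values were seen. Same-numbered control and treated arrays had deviations from their group means that correlated at 0.186, 0.172 and 0.072. Differently numbered ones correlated at -0.149 to -0.0218. The numbers were not used as a term because the labels do not say that a number marks 1 explant in both groups.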

Additional observations from a re-analysis of the deposited data

Results flagged for a closer look

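A dim probe set of Sirt5, left out of the test because it did not exceed the array median on 3 arrays, carried a signal above the control level: a mean of 2.94 ± 1.38 (SD, n = 3) without drug and of 29.6 ± 6.84 with it. With no filter its log2 change was 1.63 (limma adjusted p = 0.00193), in the direction of both tested probe sets of that gene. Of the 58 untested member probe sets, it was the 1 called higher with no filter, and 2 were called lower, of Hdac9 (-1.62) and Hdac11 (-1.19).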

How the results depend on the processing

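In 15 alternatives (scaling, pseudocount, filter, trend, replicate block, probe sets averaged, each array left out) 20 of the 32 called members kept their call and direction wherever they were tested, 18 lower and 2 higher (Sirt5 and Suv39h2). Suv39h2 passed the filter through the treated arrays alone and was not tested without a treated replicate. Keeping the same probe set when an array is left out, an alternative chosen after seeing the data, mattered for Kmt2e, Prmt2 and Ezh1. No called change reversed. Without scaling 5019 probe sets were called, and 2 members rose. With each array left out, 4 to 8 members rose and 20 to 25 fell. Quantile normalization gave 8 higher and 24 lower. No paired analysis is given as a result, since the numbers share no stated explant. With the replicate block 7 members rose and 26 fell, against 7 and 25, and each array correlated best with its own number, a hint from the data only. The design has 3 arrays a group, and low signals were not separated from background.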
